A study of Sus scrofa with 2 samples.

Results

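Inward rectifier potassium channels are membrane proteins of the KCNJ (Kir) family that let potassium pass into a cell more readily than out of it. In the cochlea the SV (stria vascularis), an epithelium of marginal, intermediate and basal cells in the lateral wall, holds the endolymph at a high potassium concentration and a positive potential, and KCNJ10 of the melanocyte-derived intermediate cells is known to be required for that potential. A channel is built from several pore subunits, which can be alike or mixed, and some members need an accessory subunit to reach the membrane. The genes described here are 8 inward rectifiers listed by symbol, KIR1.2 (the deposited name for KCNJ10), KCNJ13, KCNJ16, KCNJ2, KCNJ8, KCNJ11, KCNJ12 and KCNJ15, of which 7 were found by name among the 27622 features of the deposited table. KCNJ12, a relative of KCNJ2, was not matched and was not analysed here.

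RNA-seq was carried out on 1 library of Mitf R/r tissue and 1 library of Mitf r/r tissue from Rongchang pigs, to ask how the transcriptome differs between homozygous and heterozygous carriers of the r allele of Mitf, the gene of a transcription factor of the melanocyte lineage. The r/r pigs are albino and deaf, and the r allele carries short insertions upstream of the exon that starts the melanocyte form of the transcript. Both libraries come from carriers of the r allele, and a wild-type R/R library was not analysed here. The dissected tissue was the cochlear lateral wall that carries the SV, so spiral ligament, vessels and nerve could be included. The labels give the age of both groups as P1, whereas the study describes these SVs as embryonic, and the number of animals behind each library is not given in the sources used here. MITF itself is split over 3 features, whose log2 ratios (r/r over R/r) were -0.51, -0.45 and -0.48. These features do not separate the melanocyte form from the other forms, so they do not check the labels.

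The deposited values are RPKM, which scale the mapped reads of a gene by its exon length and by library depth, and levels below are in that unit. Low RPKM values were whole multiples of the worth of 1 read. This gave totals of 15829244 reads for the R/r library and 14258672 for the r/r library. The reads and exon model lengths of single genes given below were likewise inferred from the RPKM values. With 1 library per genotype there is no replicate check and no test: the values compare these libraries, and the 95% intervals, Poisson for a level and Clopper-Pearson for a ratio, cover counting error only. The reads were paired-end, and the sources used here do not say whether both mates of a pair were counted. If both were, these intervals are too narrow. In whole tissue, fewer cells of a type and less RNA per cell cannot be told apart. All 7 genes found passed the minimum, which was a value above 0 in both libraries and at least 1 RPKM in at least one of them.

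The study designed a pig primer pair for 1 of these channels, KCNJ13, and it is shown because KCNJ13 had the lowest ratio among them. Its place in the genome was not determined here. Each primer has 22 bases, with 50% G and C in the forward and 54.5% in the reverse primer, written 5′ to 3′.
KCNJ13 forward primer: gacccagaagaagcactgagaa
KCNJ13 reverse primer: catccttggtgactatcctccg

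KIR1.2 and KCNJ13 were lower in the r/r library by more than 2-fold, KCNJ15 fell just short of that threshold, and KCNJ16, the most abundant of the channels, had nearly equal levels. KCNJ2, KCNJ8 and KCNJ11 differed by less than their counting error. Of the 7 genes, 2 were therefore past 2-fold with the lower level in r/r, and 0 were past 2-fold with the higher. Over the whole table, 3.99% of 16331 genes were at least 2-fold apart and 2.2% were at least 2-fold lower. The median log2 ratio of the 7 genes was -0.41, against -0.02 over all genes compared. Of the 7, 5 had a ratio below 0, as had 53.3% of all genes compared.

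**Figure D1:**
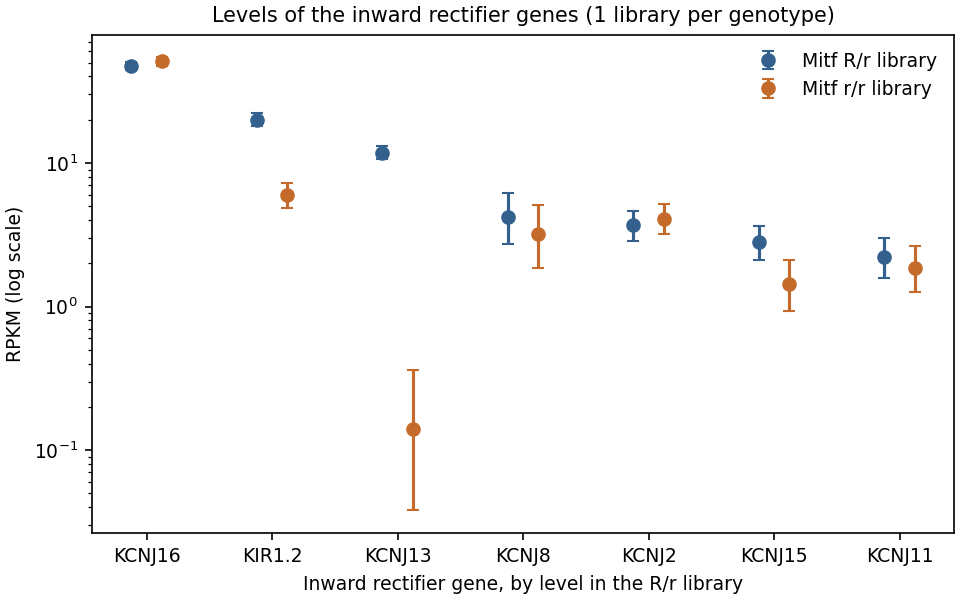
Level of each inward rectifier gene in RPKM (log scale) in the Mitf R/r library (blue) and the Mitf r/r library (orange), with genes ordered by their level in the R/r library. Points are the values of 1 library each and bars are 95% Poisson counting intervals; the intervals of the libraries are apart for KIR1.2 and KCNJ13, and KCNJ13 goes from 11.8 to 0.140 RPKM.

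KIR1.2 (ENSSSCG00000027420) is named in the deposited table by a symbol for KCNJ10, the channel of intermediate cells, while its description there reads only as an uncharacterized protein. The Ensembl name table used here gives KCNJ10 under another identifier, which is not in the deposited table, and does not hold this one. The identity of KIR1.2 as KCNJ10 therefore rests on the deposited symbol alone. Its level was 20.0 RPKM (18.0 to 22.2) in the R/r library and 5.97 RPKM (4.84 to 7.28) in the r/r library, from 361 and 97 reads over an exon model of 1140 bases. The r/r level was 29.8% of the R/r level, a log2 ratio of -1.75 (95% interval -2.08 to -1.42) or 3.35-fold lower. The transcript was thus still detected in the r/r library, at a reduced level. Of all genes compared, 0.594% had a lower ratio.

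KCNJ13 (ENSSSCG00000025038) encodes Kir7.1, a channel best known from the retinal pigment epithelium and other transporting epithelia. Its level was 11.8 RPKM (10.6 to 13.0) in the R/r library and 0.140 RPKM (0.0382 to 0.359) in the r/r library. These levels rest on 373 reads and 4 reads over 2002 bases. The r/r value lies close to the 0.105 RPKM that 3 reads would give, so its size is poorly fixed, while its distance from the R/r value is not. The log2 ratio was -6.39 (-8.28 to -5.02), that is 84.0-fold lower, with 32.5-fold as the end of the interval nearest to no change. Of all genes compared, 0.0184% had a lower ratio.

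The difference was larger for KCNJ13 than for KIR1.2. In the R/r library the level of KCNJ13 was 0.588 of that of KIR1.2, and in the r/r library it was 0.0235 of it. The log2 difference between these quotients was -4.65 (-6.56 to -3.22), so the genes were not lowered in proportion. The counting intervals of these genes, and of no other inward rectifier found, lay wholly beyond 2-fold, which held for 0.649% of all genes compared.

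KCNJ16 (ENSSSCG00000017253) encodes Kir5.1, a subunit that forms channels mainly together with KCNJ10 or KCNJ15 and gives them their sensitivity to pH. Its level was 47.0 RPKM (44.1 to 50.1) in the R/r library and 50.9 RPKM (47.7 to 54.3) in the r/r library, from 938 and 915 reads. The log2 ratio of 0.11 (-0.02 to 0.25) did not leave 0 beyond counting error, and it is the most precise of the 7. KCNJ15 (ENSSSCG00000012066) encodes Kir4.2, the closest relative of KCNJ10 and another partner of KCNJ16. Its level was 2.79 RPKM in the R/r library and 1.44 RPKM in the r/r library, from 54 and 25 reads. The log2 ratio of -0.96 (-1.71 to -0.25) is 1.95-fold lower, just outside the 2-fold threshold, with an interval that reaches well past it on one side and close to 0 on the other. An interval wholly below 0 was found for 3 of the 7 genes, KIR1.2, KCNJ13 and KCNJ15, and for 14.5% of all genes compared.

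Set against KCNJ16, the levels of its partners shifted. In the R/r library there was 0.425 RPKM of KIR1.2 for each RPKM of KCNJ16, and in the r/r library 0.117. The log2 difference was -1.86 (-2.22 to -1.50), or 3.63-fold. KCNJ15 went from 0.0594 to 0.0282 per RPKM of KCNJ16, a log2 difference of -1.08 (-1.83 to -0.35). On this scale per length, KCNJ16 thus stood above both partners in both libraries, and by more in the r/r library.

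KCNJ2 (ENSSSCG00000017252) encodes Kir2.1, a strong rectifier that sets the resting potential in muscle and other cells. It had 3.69 RPKM in the R/r library and 4.10 RPKM in the r/r library, with 71 reads in each, and a log2 ratio of 0.15 (-0.34 to 0.65). KCNJ8 (ENSSSCG00000000573) and KCNJ11 (ENSSSCG00000013379) encode Kir6.1 and Kir6.2, the pore subunits of ATP-sensitive potassium channels, Kir6.1 being known from vascular smooth muscle and pericytes. KCNJ8 had 4.21 RPKM in the R/r library and 3.18 RPKM in the r/r library, a log2 ratio of -0.41 (-1.39 to 0.54). Its exon model, as recovered from the RPKM values, has 375 bases and drew 25 and 17 reads. These few reads make its interval the widest after that of KCNJ13. KCNJ11 drew 41 and 31 reads, which gave 2.22 and 1.86 RPKM and a log2 ratio of -0.25 (-0.97 to 0.46). For KCNJ2 these counts leave out a 2-fold difference in either direction, whereas for KCNJ8 a 2-fold lower level lies within the interval. KCNJ11 has its lower bound just short of 2-fold.

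**Figure D2:**
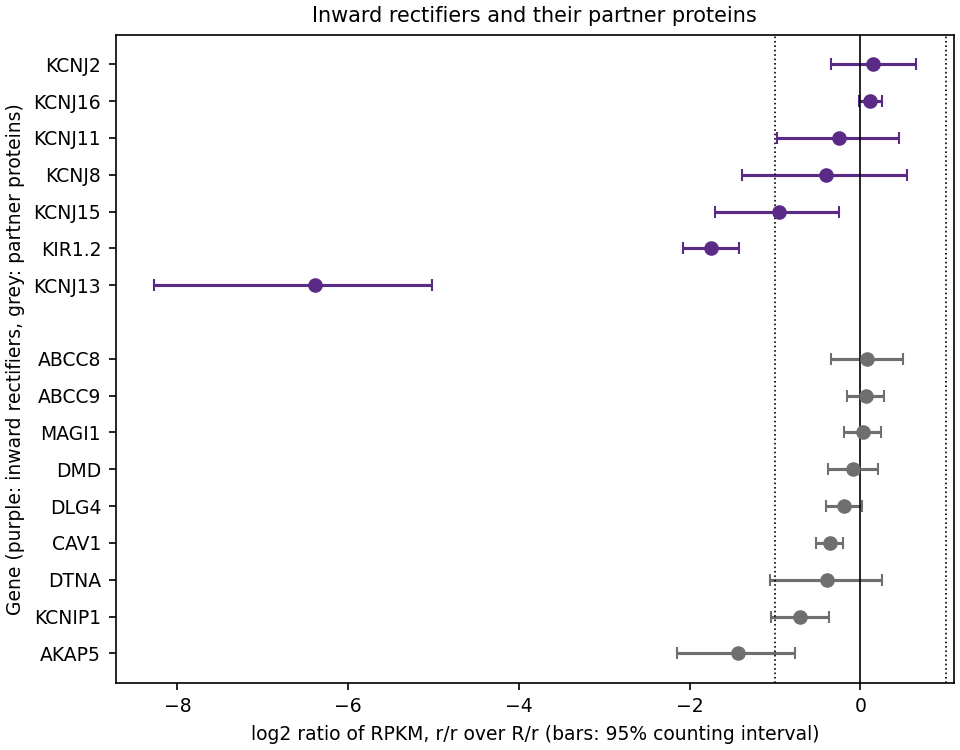
Log2 ratio of RPKM (r/r over R/r) of the 7 inward rectifier genes (purple) and of the partner proteins named in the text (grey), with 95% counting intervals as bars, 0 as a solid line and 2-fold as dotted lines. KCNJ13 (-6.39) and KIR1.2 (-1.75) lie beyond 2-fold with their whole interval, and AKAP5 (-1.43) is the partner with the lowest ratio.

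The order of the levels, which RPKM gives per length of exon model, differed between the libraries. In the R/r library KCNJ16 stood above KIR1.2, KIR1.2 above KCNJ13, and KCNJ13 above KCNJ8, each apart from the next beyond counting error. Below them came KCNJ2, KCNJ15 and KCNJ11, and from KCNJ8 on the ratio of each level to the next had an interval that includes 1. In the r/r library KCNJ16 again stood apart at the top, at 8.53 times the level of KIR1.2 (6.92 to 10.6) against 2.35 times (2.08 to 2.66) in the R/r library. KIR1.2 was next, at 1.46 times the level of KCNJ2 (1.06 to 2.01). KCNJ2, KCNJ8, KCNJ11 and KCNJ15 followed, with no neighbours among them apart beyond counting error, and KCNJ13 was last, apart from KCNJ15 above it.

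The summed level of the 7 genes was 91.7 RPKM in the R/r library and 67.6 RPKM in the r/r library. KCNJ16 made up 51.3% of the R/r sum and 75.3% of the r/r sum. KIR1.2 made up 21.8% and 8.83%. KCNJ13 made up 12.8% of the R/r sum and 0.207% of the r/r sum. The remaining 4 genes took between 2.42% and 4.59% each in the R/r library, and between 2.12% and 6.06% in the r/r library. A share depends on the other members, so the higher share of KCNJ16 stands beside a level that did not leave its counting error.

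**Figure D3:**
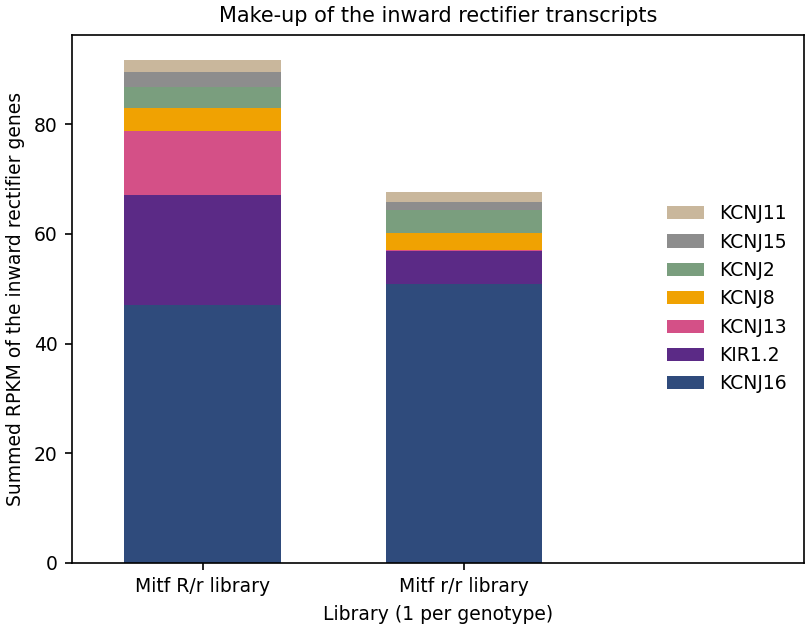
Summed RPKM of the 7 inward rectifier genes in the Mitf R/r and the Mitf r/r library (1 library per genotype), stacked by gene. The sum is 91.7 RPKM in the R/r library and 67.6 RPKM in the r/r library, and the bands of KIR1.2 and KCNJ13 account for the visible difference while the KCNJ16 band is 47.0 and 50.9 RPKM high.

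Other inward rectifiers had low levels. Of 8 listed, 7 were found, 0 reached 1 RPKM, and together they summed to 1.80 RPKM in the R/r library and 2.13 RPKM in the r/r library; KCNJ18 was not matched and was not analysed here. KCNJ1, the renal outer medullary channel, had 0.752 and 0.954 RPKM from 7 and 8 reads, and KCNJ14 had 0.718 and 0.717 RPKM from 30 and 27 reads. The G protein-gated channels KCNJ6, KCNJ9, KCNJ5 and KCNJ3 had between 0.0143 and 0.360 RPKM. KCNJ4 was listed at 0 in both libraries.

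Among partner proteins, 10 of 10 passed the minimum, 1 was at least 2-fold lower, 0 were at least 2-fold higher, and the median log2 ratio was -0.14. ABCC8 (SUR1) and ABCC9 (SUR2) are the sulfonylurea receptors that complete ATP-sensitive channels. ABCC8 had 2.50 RPKM in the R/r library and 2.63 RPKM in the r/r library, a log2 ratio of 0.08 (-0.35 to 0.50), and ABCC9 had 5.46 and 5.69 RPKM, a ratio of 0.06 (-0.16 to 0.28). Pore and receptor genes of these channels therefore all had intervals that include 0.

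AKAP5, an anchoring protein for protein kinase A, was the partner past the threshold. It had 3.69 RPKM in the R/r library and 1.37 RPKM in the r/r library, from 75 and 25 reads, a log2 ratio of -1.43 (-2.15 to -0.76). Its interval crosses 2-fold. KCNIP1, which binds voltage-gated potassium channels of another family, had 8.68 and 5.31 RPKM with a ratio of -0.71 (-1.05 to -0.37), and CAV1, the caveolar coat protein, had 19.7 and 15.4 RPKM with a ratio of -0.36 (-0.52 to -0.20). DTNA, DLG4, DMD and MAGI1, which are scaffold proteins, had ratios of -0.39, -0.19, -0.09 and 0.03.

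Other transport genes of the SV did not pass 2-fold. Of 11 genes that supply or carry potassium in intermediate cells and their neighbours, 8 were found, 7 passed the minimum, and 0 were at least 2-fold apart, with a median log2 ratio of -0.20. ATP1B2, a subunit of the sodium pump, had 915 RPKM in the R/r library and 522 RPKM in the r/r library and the lowest ratio of this list, -0.81. The list for potassium secretion by marginal cells had 7 of 11 genes found, 0 of 7 at least 2-fold apart and a median of -0.30, from ATP1B2 to SLC12A2 (0.10), the cotransporter of their basolateral membrane. The pump, cotransporter and marginal cell genes thus differed less between the libraries than KIR1.2 and KCNJ13 did.

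**Figure D4:**
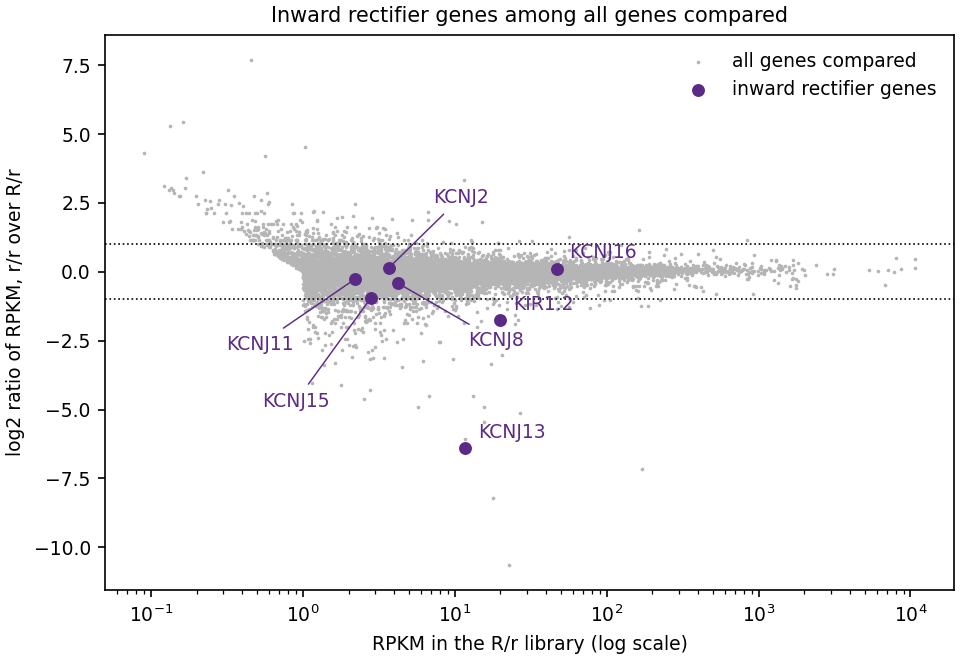
Log2 ratio of RPKM (r/r over R/r) against RPKM in the R/r library (log scale) for the 16331 genes compared (grey) and the 7 inward rectifier genes (purple), with dotted lines at 2-fold. KCNJ16, KCNJ2, KCNJ8 and KCNJ11 lie within the band of all genes, KCNJ15 at its lower edge, and KIR1.2 and KCNJ13 below it.

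Among the cell type lists, that of melanocytes had the median furthest from 0, in the direction of KIR1.2 and KCNJ13. The lists were written with earlier results of these data known, so this place of the melanocyte median is no independent finding. All of its lower genes but GPR143 are among those the study reported as differing between these libraries. Of 18 melanocyte genes, 17 were found, 13 passed the minimum, 8 were at least 2-fold lower and 0 higher, with a median of -3.34 and a summed level of 375 RPKM in the R/r library against 73.0 RPKM in the r/r library. The lower genes were TRPM1 (-10.64, with 1 read in the r/r library), DCT (-7.17), TYR (-6.06), RAB38 (-5.44), SLC45A2 (-5.11), PMEL (-4.92), EDNRB (-3.34) and GPR143 (-1.25), which cover pigment synthesis, melanosomes and an endothelin receptor of the lineage. KIT, the receptor for stem cell factor, had 43.6 and 44.2 RPKM and a log2 ratio of 0.02, and OCA2 had the highest ratio at 0.04. MLANA and PAX3 were listed at 0 in the r/r library and MC1R in the R/r library. Marginal cell and fibrocyte genes were present in both libraries, as the tissue label asks. Several defining pigment genes of intermediate cells were near 0 in the r/r library. TYRP1, also a pigment gene, was near 0 in both libraries, with 1 read in each. SLC24A5, SOX10 and RAB27A passed the minimum but not 2-fold, with log2 ratios of -0.94, -0.21 and -0.02. From electron microscopy and marker genes, the study holds that r/r SVs keep their intermediate cells before birth and lose them around birth. The marker genes it names for this include KIR1.2 itself, at 20.0 RPKM in the R/r library and 5.97 RPKM in the r/r library. They also include KIT, whose levels were nearly equal. That marker evidence is therefore not separate from the KIR1.2 ratio given here. Low pigment genes alone do not show whether intermediate cells were absent from the r/r tissue. Whether the inward rectifiers are transcribed in intermediate cells cannot be read from whole tissue, and the part of melanocyte RNA in their ratios was not tested.

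The Schwann cell and satellite glia list, of cells that can also hold KCNJ10, had 13 of 15 genes found, 11 past the minimum, 3 at least 2-fold lower and 2 at least 2-fold higher. Among the lower genes were CADM3 (20.6 to 2.53 RPKM, log2 ratio -3.03) and LGI4 (26.0 to 7.84 RPKM, -1.73), and the higher ones were GFAP (1.28) and MAG (1.81, from 6 and 19 reads). The median was 0.04 and the summed level 6329 RPKM in the R/r library against 6543 RPKM in the r/r library, of which S100B alone made up 6091 and 6272 RPKM. The genes of this list thus did not differ in 1 direction. The part of glial RNA in the KIR1.2 ratio was not tested.

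For the vessel channels the marker lists were close to level. Of 10 pericyte and smooth muscle genes, 10 were found and 0 of the 7 past the minimum were at least 2-fold apart, with a median of -0.00, a range from NOTCH3 (-0.19) to ACTA2 (0.12), and a summed level of 193 RPKM in the R/r library against 187 RPKM in the r/r library. RGS5, a pericyte marker, had 84.9 and 85.0 RPKM. Of 10 endothelial genes, 8 were found and 0 of 8 were at least 2-fold apart, from VWF (-0.73) to TEK (0.24), with a median of -0.08 and a summed level of 288 RPKM in the R/r library against 284 RPKM in the r/r library. The summed levels of both lists thus differed little between the libraries. So did the levels of KCNJ2 and of ABCC9, which is itself on the pericyte and smooth muscle list. KCNJ8, the pore gene known from these cells, had a log2 ratio of -0.41 (-1.39 to 0.54). A 2-fold lower level of KCNJ8 lies within that interval.

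The lists for other tissue were less even. Of 10 basal cell and fibrocyte genes, 6 were found and 0 of the 5 past the minimum were at least 2-fold apart, from COCH (-0.47) to EPYC (0.41), with a median of -0.04 and sums of 9569 RPKM (R/r) against 8112 RPKM (r/r). Of 10 macrophage genes, 8 were found and 0 of 7 were at least 2-fold apart, from CX3CR1 (-0.48) to AIF1 (0.10), with a median of -0.26 and sums of 70.0 and 62.3 RPKM. Bone genes were lower, with 11 of 11 past the minimum, 3 at least 2-fold lower (MEPE at -3.14, COL1A1 at -1.21 and DMP1 at -1.11), SPP1 highest at 0.27, a median of -0.68, and sums of 1058 RPKM in the R/r library and 693 RPKM in the r/r library. Of the muscle list 8 of 10 genes were found and 5 passed, with TNNC1 (-1.26) and TNNT1 (-1.08) lower, MYH6 (1.06) higher, a median of -0.41 and sums of 54.4 and 75.5 RPKM; ACTA1 was listed at 0 in the R/r library and MYL1 in both. Of the neuron list 8 of 10 were found and 2 passed, with GAP43 lower at -1.19, a median of -1.03 and sums of 11.6 and 7.29 RPKM. Below the minimum, the neuronal genes NEFL and SYT1 had ratios above 0, NEFL at a log2 ratio of 3.70 (2.03 to 6.04, drawn from 3 reads against 35) and SYT1 with a ratio of 0.72 (-0.02 to 1.48). The medians of the lists in this paragraph thus all had the same sign as the ratios of KIR1.2, KCNJ13 and KCNJ15. The median over all genes compared, -0.02, had that sign too. Neuron genes had ratios on both sides of 0 only when those below the minimum were included. The part of such tissue in the ratios of these channels was not tested.

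**Figure D5:**
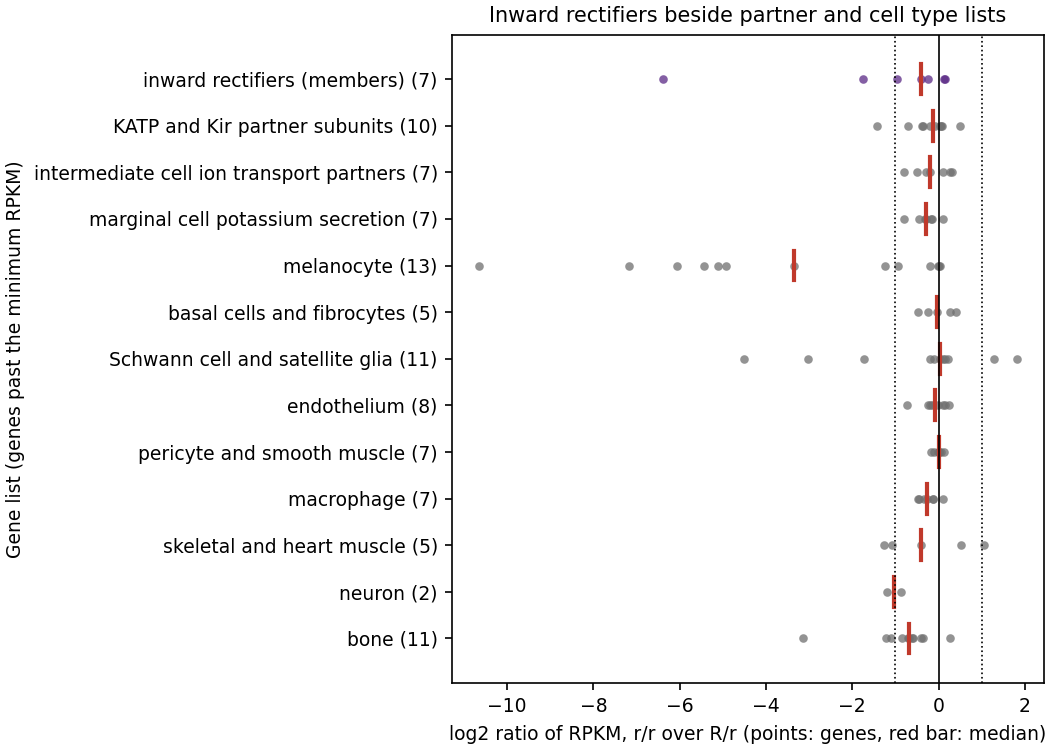
Log2 ratio of RPKM (r/r over R/r) of single genes (points) and the median (red bar) of the inward rectifiers and of 12 lists of partner, transport and cell type genes, with the number of genes past the minimum in parentheses, 0 as a solid line and 2-fold as dotted lines. The melanocyte median (-3.34) lies furthest from 0 among the lists, and the inward rectifier median is -0.41. The lists were written with earlier results of these data known.

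The genes nearest to KCNJ13 in ratio, among 6824 named genes with at least 10 RPKM in the R/r library and a value above 0 in both, were TYR (-6.06), DCT (-7.17) and RAB38 (-5.44). All of these belong to the melanocyte list, which was written with earlier results of these data known. Nearest to KIR1.2 were LGI4 (-1.73), a secreted protein of Schwann cells, CD3Z (-1.70), a T cell receptor chain, and CA12 (-1.79), a carbonic anhydrase. Likeness here is a distance between single ratios of 1 pair of libraries. Of the 8347 features with at least 10 RPKM in the R/r library and a value above 0 in both, 3 others were as low as KCNJ13 and 15 others as low as KIR1.2.

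Genes beside the channels in the genome, taken from the RefSeq annotation of Sscrofa11.1, a later assembly than that of the alignment, had ratios short of 2-fold where they were found. KCNJ13 overlaps GIGYF2, a regulator of translation, which had 25.8 RPKM in the R/r library and 20.7 RPKM in the r/r library and a log2 ratio of -0.32 (-0.49 to -0.15). EFHD1, the gene before KCNJ13, had 27.8 and 33.7 RPKM and a ratio of 0.28. Whether the counting used strand is not given in the sources used here, so reads of KCNJ13 and GIGYF2 may not be told apart where they overlap. KCNJ10 lies between KCNJ9, with 2 and 3 reads, and PIGM, with 11.8 and 11.6 RPKM and a ratio of -0.02.

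KCNJ16 and KCNJ2 are neighbours, and both had small ratios. KCNJ8 lies next to ABCC9 and KCNJ11 next to ABCC8, so each pore gene of the ATP-sensitive channels sits beside a receptor gene. NUCB2, on the other side of KCNJ11, had 26.8 and 22.8 RPKM and a ratio of -0.23. ERG, next to KCNJ15, had 5.80 and 5.60 RPKM and a ratio of -0.05 (-0.28 to 0.18), against the -0.96 of KCNJ15.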

How the data were processed

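RNA-seq of the cochlear lateral wall was analysed in 1 Mitf R/r and 1 Mitf r/r library. The authors aligned reads to Sscrofa10.2 with TopHat2 (2.0.7) and deposited 1 table of RPKM values per gene; neither the program nor the annotation used for counting is given in the sources used here. RPKM already carries the scaling to length and depth and was used as deposited. A further 2 columns without headings, which hold values made by the authors from both libraries in 22 rows, were not used.

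The members and gene lists were chosen with earlier results of these data known. Symbols came from the deposited table for 16376 features and from an Ensembl name table for 1794. The log2 ratio, r/r over R/r, was taken with no pseudocount added, for the 16331 genes that had a value above 0 in each library and reached 1 RPKM in at least one, and 2-fold was the threshold. With 1 library per genotype no test was made. Named are all members, other inward rectifiers and partners found, list genes at least 2-fold apart or else the lowest and highest of the list, defining markers at 0, the 3 genes nearest in ratio, annotated neighbours and MITF. Further list genes (KIT, OCA2, TYRP1, SLC24A5, SOX10, RAB27A, SPP1, RGS5, S100B, NEFL, SYT1) were named after their values were seen. Some genes that this rule names are not reported here.

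Whole reads were recovered from ratios between low RPKM values. Library totals that make exon model lengths whole did so for 68.0% of the 3000 genes used, and reads were found for 19347 of 19347 features above 0 in both libraries, although true reads may be a common multiple of those found. A single read on 1000 bases is worth 0.0632 RPKM in the R/r and 0.0701 RPKM in the r/r library. On simulated data of 19309 genes, in the comparison of r/r with R/r, both totals were recovered exactly, 84.5% of 18846 genes had the exact reads, 96.7% of the 95% intervals held the true ratio, and the direction of all 200 genes simulated with a change was found.

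Alternatives were pseudocounts of 0.1 and 1 RPKM, no minimum and minimums of 5 and 10 RPKM, TPM, upper quartile and median scaling, a threshold of 1.5-fold or of 4-fold, intervals wholly beyond 2-fold, sums over features and Ensembl features alone. Computation used scipy 1.17.1, pandas 2.3.3 and numpy 2.4.6 under Python 3.11.15, and plots were drawn with matplotlib 3.10.9.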

Additional observations from a re-analysis of the deposited data

How the results depend on the processing

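The log2 ratio of KCNJ13 moved to -3.49 with a pseudocount of 1 RPKM, since its r/r level is far below 1 RPKM. The other member ratios moved by less than their counting intervals under every pseudocount and scaling tried: KIR1.2 ranged from -1.78 to -1.59, KCNJ15 came no nearer to 0 than -0.64, and KCNJ16 ranged from 0.08 to 0.13. Members past the threshold numbered 1, KCNJ13, at 4-fold and 3 at 1.5-fold, where KCNJ15 was added. Of the genes over the whole table, 651 were past 2-fold, of which 360 had the lower and 291 the higher level in r/r. This count was 317 with a pseudocount of 1 RPKM, 1483 with no minimum (752 lower and 731 higher), 178 with a minimum of 5 RPKM and 87 with a minimum of 10. It was 1771 at 1.5-fold, 130 at 4-fold, 106 by intervals wholly beyond 2-fold, and 91 by the same on reads reduced to their smallest whole numbers, an alternative chosen after seeing the data. The melanocyte median of -3.34 moved to -2.29 with no minimum, -2.76 with a pseudocount of 1 RPKM, -4.13 with a minimum of 5 RPKM and -5.11 with a minimum of 10, and stayed below 0 under every alternative tried. The median of the Schwann cell and satellite glia list changed sign to -0.037 with no minimum and with a minimum of 5 RPKM, under which 12 and 10 of its genes entered in place of 11.

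Depth limits KCNJ8, KCNJ11, KCNJ15 and KCNJ2, with under 100 reads in each library. Nothing here measures variation between animals. No paired analysis was possible because each genotype has 1 library.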
